A study of Aquilegia coerulea with 32 samples.

Results

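The step from s2 to s3 in early floral development of *Aquilegia coerulea* 'Kiragami' was described from 16 of the 32 libraries of the series, 8 at s3 and 8 at s2, chosen by their stage label alone. At s3 the rims of the carpel primordia had risen but the apex was not yet used up, and at s2 the stamen and staminode primordia were all present and the carpels were about to start. All buds were wild-type and came from vernalized plants, 3 of the sepals of each bud were removed, which left some sepal tissue, and each library held 2 buds from different plants. RNA was amplified from total RNA and sequenced without strand information, so that reads of a gene and of an overlapping antisense gene cannot be told apart. The libraries were prepared from buds and not from dissected apices, and in such bulk samples fewer cells of a type and less RNA per cell cannot be told apart.

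A floral meristem is a dome of dividing cells that makes whorls of organs in order and then stops, with the carpels as its last product. Class-I KNOX homeodomain proteins such as SHOOT MERISTEMLESS (STM) keep its cells undifferentiated, boundary genes such as *CUC3* and *HANABA TARANU* (*HAN*) separate the organs from the apex, and the F-box protein UFO works with LEAFY to set floral identity. In Arabidopsis anthers, the secreted ligand TPD1 and its receptor kinase EMS1 specify the tapetum, while SWITCH1 (SWI1) acts in male meiosis.

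Totals of estimated counts were 21502103 to 29471154 per library at s3 and 22918880 to 28035245 at s2, and 17805 to 18133 genes at s3 and 17719 to 18145 genes at s2 exceeded 1 CPM, the count scaled to library size. In a principal component analysis of log2 CPM over the 16 libraries, PC1 held 35.7% of the variance, of which 0.0479% lay between the stages. Replicate 7 stood at the high end of PC1 in both stages, at 83.5 for s3 and 81.0 for s2. PC2 held 11% of the variance, of which 79.1% lay between the stages, with scores of -35.5 to -8.05 at s3 and -0.31 to 42.6 at s2. The carpel markers *AqCRC* and the *SHP2* homolog *Aqcoe1G209900* were present in every library. *AqCRC* (*Aqcoe3G065300*) ran from 25.6 to 38.8 TPM at s3 and from 24.6 to 44.8 TPM at s2, and the *SHP2* homolog from 5.91 to 8.51 TPM at s3 and from 5.02 to 13.8 TPM at s2. Neither passed the test (edgeR adjusted p 1 and 0.95), so that these markers cannot check which of the stages a library belongs to.

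**Figure D1:**
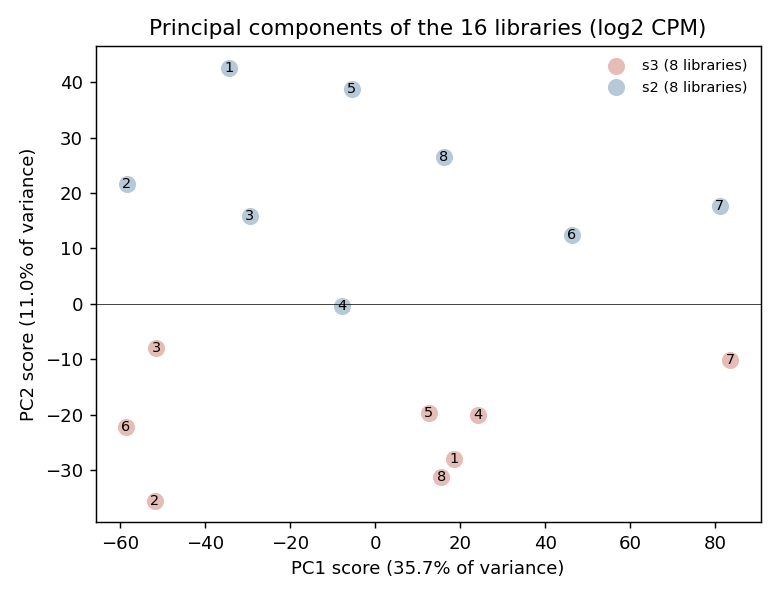
Scores of the 16 libraries on the first 2 principal components of log2 CPM, with the replicate number inside each point. The s3 libraries lay below every s2 library on PC2, while PC1 mixed the stages and placed replicate 7 of both stages at its high end.

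Few genes passed both thresholds of a call between the stages. Of 20477 genes tested, 64 (0.313%) were called, with 53 (0.259%) higher and 11 (0.0537%) lower at s3. The genes that fell included both loci related to *UFO* and the cytokinin signalling inhibitor *AqAHP6*, and those that rose included some homologs of anther and meiosis regulators, small heat shock proteins and the homeobox gene *LMI1*. Genes were called where edgeR's quasi-likelihood test gave a p under 0.05 after Benjamini-Hochberg adjustment and the log2 fold change, s3 minus s2, was 1 or more in size. At any fold change, an adjusted p under 0.05 was reached by 82 genes that were higher at s3 (0.400%) and 47 that were lower (0.230%), and "rose" and "fell" are used below for these. Over all genes tested the median log2 fold change was -0.00. The count was 110 with DESeq2 and 129 with the main component of residual variation as a covariate, and it ran from 46 (without s2 replicate 5) to 80 (without s2 replicate 4) when 1 library was left out. The lower calls numbered 17 without s3 replicate 1, which is over 1.5 times their count with all libraries.

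**Figure D2:**
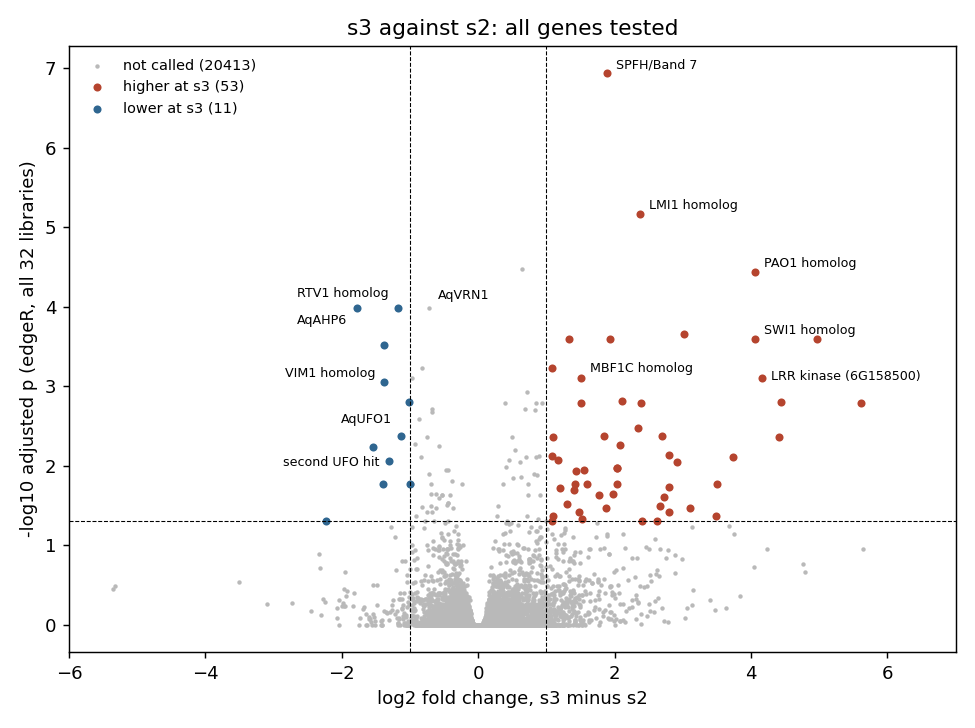
Log2 fold change (s3 minus s2) against -log10 of the edgeR adjusted p for each of the 20477 genes tested, with dashed lines at the thresholds of a call. The 53 genes called higher at s3 reached larger fold changes than the 11 called lower, and most genes lay below the p threshold.

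Without a test, 24 genes (0.117%) had their TPM in all 8 libraries of s3 above all 8 of s2, and 20 (0.0977%) had it below. Of the called genes, 12 of the 53 higher and 6 of the 11 lower were separated in this way. The count of 44 separated genes rested on single libraries in part, and became, with fewer libraries to keep apart, 80 without s3 replicate 7, 76 without s2 replicate 4 and 72 without s2 replicate 7.

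Meristem and boundary genes moved downward as a list. All 20 members had a log2 fold change below 0, with a median of -0.60, against -0.00 over all genes tested. An adjusted p under 0.05 was reached by 10 members and a call by 3, *AqUFO1*, *AqAHP6* and the *CLE27* homolog. The summed level of the list was 443 to 619 TPM per library at s3 (median 547) and 699 to 924 TPM at s2 (median 780), without overlap. The list was put together by hand. It includes *AqVRN1*, whose functional role the paper leaves unclear. Many of its members were named by the study as higher at the earliest stage, s1, or as hub genes of a co-expression module tied to s1. The direction of the list was thus largely set by the choice of members and is not independent evidence. Its median stayed between -0.64 and -0.56 in all alternatives and with each of the 32 libraries left out.

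*AqUFO1* (*Aqcoe1G161900*) had 10.9, 17.7 and 23.8 TPM as its lowest, median and highest level at s3, against 28.8, 37.2 and 54.2 TPM at s2. Every s3 library lay below every s2 library. The log2 fold change was -1.13 (SE 0.21, adjusted p 0.0042 by edgeR). The other locus with *UFO* as its best Arabidopsis hit, *Aqcoe0095s0001*, had a lowest, median and highest level of 5.54, 13.6 and 16.8 TPM at s3, against 18.0, 30.5 and 42.4 TPM at s2, again without overlap. Its log2 fold change was -1.31 (SE 0.26, adjusted p 0.0087 by edgeR). The loci did not rank the libraries alike, since at s2 replicate 7 had 40.5 TPM of *AqUFO1*, above the median, and 18.0 TPM of *Aqcoe0095s0001*, the lowest level of that stage. Reads shared by close paralogs are divided between them by estimate, which leaves the level of each locus uncertain. Both calls held in every alternative and with each library left out.

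*AqAHP6* (*Aqcoe7G234000*), homologous to a pseudophosphotransfer protein that dampens cytokinin signalling in Arabidopsis, was expressed at low levels. It had 0.49, 0.92 and 1.31 TPM as its lowest, median and highest level at s3, against 2.52, 2.98 and 3.78 TPM at s2. The stages did not overlap, and the mean was 0.867 ± 0.285 TPM at s3 and 3.02 ± 0.378 TPM at s2 (SD, n = 8 each). The log2 fold change of -1.78 (SE 0.25, adjusted p 0.0001 by edgeR) was the most negative among the separated genes called. Of 41 genes in the hormone list, *AqAHP6* was the 1 member with an adjusted p under 0.05, and the median of that list was 0.04.

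The *CLE27* homolog *Aqcoe3G039100*, which encodes a CLAVATA3-related peptide, had 0.313, 1.01 and 1.21 TPM as its lowest, median and highest level at s3, against 1.04, 2.66 and 3.19 TPM at s2. The overlap came from s2 replicate 7 alone, at 1.04 TPM, while the other s2 libraries started at 2.23 TPM. Its log2 fold change was -1.39 (SE 0.30, adjusted p 0.017 by edgeR).

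**Figure D3:**
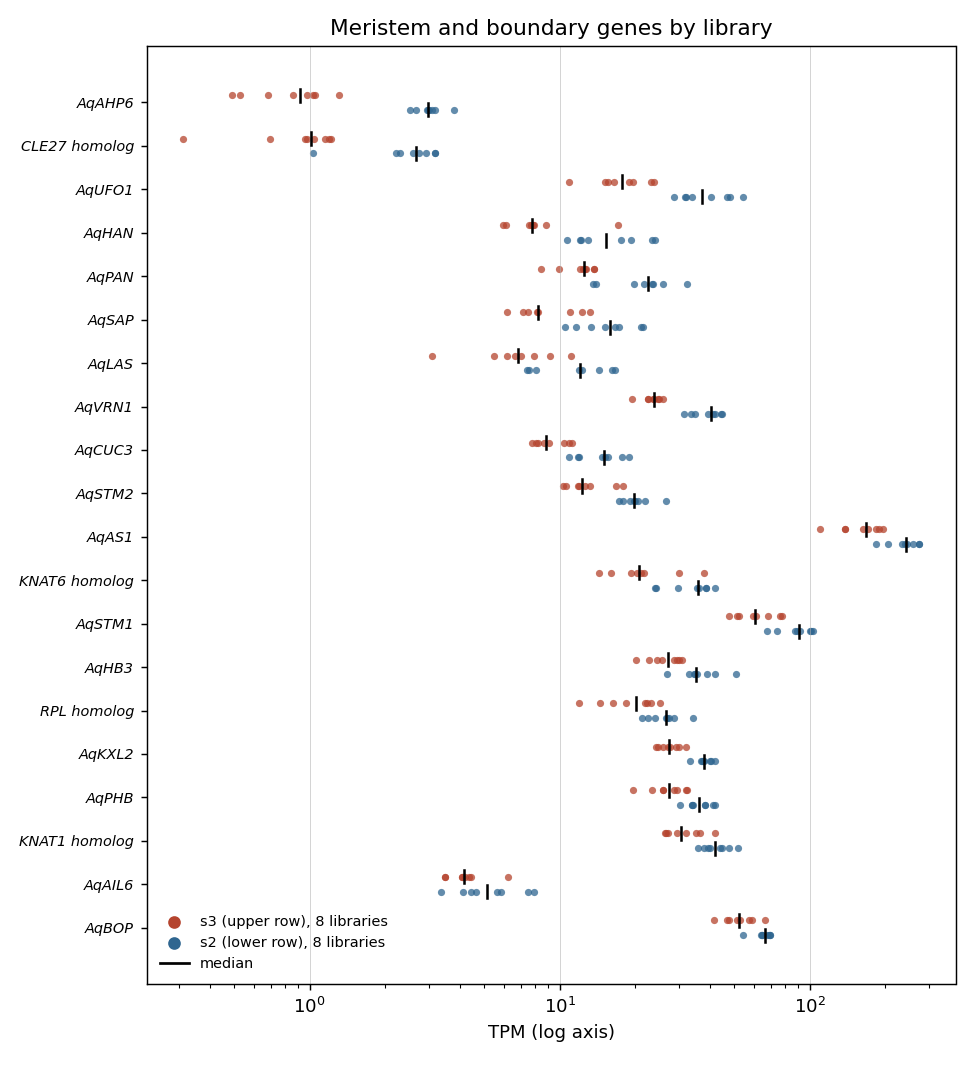
TPM in each library (log axis) for the 20 meristem and boundary genes, with s3 in the upper and s2 in the lower row of each gene and a black line at the median, ordered by log2 fold change. The s3 median lies left of the s2 median in all 20 genes, and *AqAHP6*, *AqUFO1*, *AqVRN1* and *AqKXL2* do not overlap between the stages.

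The remaining 7 members that fell did so by less than the fold threshold. *AqVRN1* (*Aqcoe2G107800*), a B3 domain gene whose Arabidopsis relative acts in vernalization, had 19.5, 23.8 and 25.8 TPM as its lowest, median and highest level at s3, against 31.4, 40.2 and 44.8 TPM at s2. The stages were separated, and the log2 fold change was -0.72 (SE 0.10, adjusted p 0.0001 by edgeR). *AqPAN* (*Aqcoe3G399500*), a bZIP gene related to the regulator of floral organ number *PERIANTHIA*, had 8.44, 12.5 and 13.7 TPM at s3, against 13.6, 22.5 and 32.4 TPM at s2, and its ranges overlapped only at their ends (log2 fold change -0.86, SE 0.16, adjusted p 0.0026 by edgeR). *AqSAP* (*Aqcoe1G384300*), related to the F-box gene *STERILE APETALA*, was close to the p threshold with a log2 fold change of -0.78 and an adjusted p of 0.0497. It kept an adjusted p under 0.05 in only 9 of the 32 fits with 1 library left out.

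Of the class-I KNOX genes in this list, *AqSTM1*, *AqSTM2* and *AqKXL2* fell. *AqSTM1* (*Aqcoe4G224800*) had 47.4, 60.3 and 77.2 TPM as its lowest, median and highest level at s3, against 67.6, 90.3 and 103 TPM at s2, and its log2 fold change was -0.53 (SE 0.12, adjusted p 0.023 by edgeR). *AqSTM2* (*Aqcoe1G341500*) had 10.3, 12.3 and 17.9 TPM at s3, against 17.3, 19.9 and 26.6 TPM at s2 (log2 fold change -0.63, SE 0.15, adjusted p 0.034). *AqKXL2* (*Aqcoe3G280300*) had 24.4 to 32.1 TPM at s3 and 33.2 to 41.8 TPM at s2, and it was the KNOX gene without overlap between stages (log2 fold change -0.45, SE 0.10, adjusted p 0.030). The *KNAT6* homolog *Aqcoe2G274900* and the *KNAT1* homolog *Aqcoe6G318700* had log2 fold changes of -0.56 and -0.41 that did not pass the test (adjusted p 0.26 and 0.15). *AqPHB* (*Aqcoe1G178700*), an HD-ZIP gene related to a determinant of the upper organ side, fell by 0.42 (SE 0.09, adjusted p 0.023). With 1 library left out, *AqSTM2* kept an adjusted p under 0.05 in 22 of 32 fits, and *AqSTM1*, *AqKXL2* and *AqPHB* in 25 each.

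Boundary genes were also below 0 but did not pass the test. *AqHAN* (*Aqcoe5G190300*) had 5.94, 7.75 and 17.1 TPM as its lowest, median and highest level at s3, against 10.7, 15.3 and 24.1 TPM at s2. A single library, s3 replicate 1, overlapped the s2 range at 17.1 TPM, and the other s3 libraries reached at most 8.83 TPM. With all libraries the log2 fold change was -0.94 (SE 0.28, adjusted p 0.15 by edgeR), and without s3 replicate 1 *AqHAN* passed both thresholds with a log2 fold change of -1.16 (adjusted p 0.0392). *AqCUC3* (*Aqcoe6G165500*) had 7.72 to 11.2 TPM at s3 and 10.9 to 19.02 TPM at s2, with a log2 fold change of -0.66 that did not pass the test (adjusted p 0.11). *AqLAS* (-0.73), *AqAS1* (-0.57), the *RPL* homolog (-0.45), *AqHB3* (-0.47), *AqAIL6* (-0.33) and *AqBOP* (-0.31) did not pass it either, with adjusted p from 0.11 to 0.78.

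Among 5 organ identity genes, the log2 fold changes were all below 0 with a median of -0.37, and 1 passed the test. *AqSEP1* (*Aqcoe3G065400*), a MADS-box cofactor of the floral organ identity proteins, had 9.86, 11.996 and 18.2 TPM as its lowest, median and highest level at s3, against 16.9, 20.02 and 23.8 TPM at s2. The overlap came from s3 replicate 7, and the log2 fold change was -0.69 (SE 0.15, adjusted p 0.023 by edgeR). The *AP3* homolog *Aqcoe5G180800* had a log2 fold change of -0.37 and the *AP1* homolog *Aqcoe3G373600* one of -0.28, and neither passed the test (adjusted p 0.47 and 1).

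Homeobox genes were listed only where the study had found them to differ between stages. The homeobox list of 14 genes, 8 of which are also in the meristem list, held 5 genes that fell, 4 of them from the meristem list, and 1 that rose, with a median of -0.46. Over all genes tested, 0.230% fell and 0.400% rose. *AqKXL3* (*Aqcoe7G052800*), related to the class-II KNOX gene *KNAT7*, had 23.9, 36.5 and 50.9 TPM as its lowest, median and highest level at s3, against 49.9, 75.7 and 84.5 TPM at s2. The paper, by contrast, profiled *AqKXL3* among the class-I KNOX genes. At -0.96 (SE 0.16, adjusted p 0.00078 by edgeR) it lay just short of the fold threshold. The member that rose, the *LMI1* homolog *Aqcoe1G115900*, belongs to the HD-ZIP family, and its Arabidopsis counterpart is a target of LEAFY with roles in floral meristem identity and leaf shape. It had 6.21, 24.6 and 35.8 TPM as its lowest, median and highest level at s3, against 2.27, 4.12 and 6.23 TPM at s2. All but 1 of the s3 libraries exceeded every s2 library, and the log2 fold change was 2.37 (SE 0.27, adjusted p 6.8e-06 by edgeR). The overlap was between s3 replicate 4 (6.21 TPM) and s2 replicate 4 (6.23 TPM).

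Outside the meristem list, 8 further genes were called lower at s3, *Aqcoe0095s0001* among them. The *VIM1* homolog *Aqcoe3G422300*, related to a RING protein that binds hemimethylated DNA and maintains CG methylation, had 4.72, 11.7 and 16.3 TPM as its lowest, median and highest level at s3, against 20.8, 27.3 and 35.2 TPM at s2. The stages were separated and the log2 fold change was -1.38 (SE 0.23, adjusted p 0.00089 by edgeR). The neighbouring kinase genes *Aqcoe7G055500* and *Aqcoe7G055600* were separated too. *Aqcoe7G055500* had 3.69 to 8.10 TPM at s3 and 9.62 to 19.7 TPM at s2 (log2 fold change -1.38, SE 0.21, adjusted p 0.0003 by edgeR), and *Aqcoe7G055600* had 0.283 to 0.646 TPM at s3 and 0.720 to 2.14 TPM at s2 (-1.55, SE 0.30, adjusted p 0.0058). Their best Arabidopsis hits differ, but both are protein kinases, and shared reads between these neighbours were not examined.

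The *RTV1* homolog *Aqcoe7G028200*, a B3 domain gene related to *VRN1*, had 5.84, 9.36 and 12.04 TPM as its lowest, median and highest level at s3, against 11.5, 21.8 and 24.9 TPM at s2, where replicate 6 alone entered the s3 range. Its log2 fold change was -1.18 (SE 0.16, adjusted p 0.0001 by edgeR). With *AqVRN1* it was 1 of 2 members of the 19-gene B3 list that fell, against 0.230% of all genes tested, and 16 of the 19 were below 0 (median -0.45). The B3 list holds only genes that the study had found to differ between stages. The least firm of the lower calls were the phosphate transporter homolog *Aqcoe6G162300* (log2 fold change -2.24, SE 0.55, adjusted p 0.049 by edgeR, called in 11 of the 32 fits with 1 library left out) and *Aqcoe2G397100*, with HMG and ARID domains (-1.01, SE 0.22, adjusted p 0.017, called in 23 of them). *Aqcoe5G084000*, of a heavy metal binding family, also lay near the fold threshold (-1.02, SE 0.17, adjusted p 0.0016, called in 25 of them).

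Some homologs of anther and meiosis regulators rose at s3, while others did not pass the test. Of 12 genes in the anther and pollen list, 3 rose, 2 of them past the fold threshold (the *TPD1* and *EMS1* homologs). The third was *Aqcoe3G375900*, an extensin-like gene of the pollen Ole e 1 family that is also in the cell wall list. Its mean was 36.2 TPM at s3 and 18.9 TPM at s2, and it is not an anther regulator by its annotation. The median log2 fold change was 1.02 and 11 were above 0, against 49.9% of all genes tested. The summed level of the list, *Aqcoe3G375900* included, was 85.0 to 128 TPM at s3 and 66.5 to 81.2 TPM at s2, without overlap. Like the other family and function lists, it holds only genes that the study had found to differ between stages of these libraries. In every pairwise comparison the study found more genes higher than lower at the later stage. A majority above 0 is therefore not independent evidence, and all genes tested are not a matched background. The list does not hold the *SWI1* and *TGA9* homologs described below.

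The *TPD1* homolog *Aqcoe5G346200*, the ligand gene, had 1.83, 6.70 and 9.51 TPM as its lowest, median and highest level at s3, against 0.587, 1.91 and 3.22 TPM at s2. Replicates 4 and 7 of s3 lay within the s2 range and the other 6 above it. The log2 fold change was 1.60 (SE 0.35, adjusted p 0.017 by edgeR), and the call was lost with limma-voom (adjusted p 0.0656). The *EMS1* homolog *Aqcoe2G426800*, the receptor gene, had 5.12, 9.75 and 13.6 TPM at s3, against 3.63, 4.23 and 5.69 TPM at s2, and s3 replicate 4 was the 1 library of s3 inside the s2 range (log2 fold change 1.099, SE 0.21, adjusted p 0.0043). A second gene with *EMS1* as its best hit, *Aqcoe1G136700*, averaged 32.2 TPM at s3 and 33.7 TPM at s2, with a log2 fold change of -0.07 (adjusted p 1).

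The *SWI1* homolog *Aqcoe7G088400* was nearly silent at s2. It had 0.481, 6.02 and 10.7 TPM as its lowest, median and highest level at s3, against 0.0432, 0.295 and 0.905 TPM at s2. Replicates 4 and 7 of s3 lay within the s2 range at 0.481 and 0.613 TPM, and the other 6 had 5.10 to 10.7 TPM. The log2 fold change was 4.06 (SE 0.60, adjusted p 0.00026 by edgeR), and limma-voom gave an adjusted p of 0.08, at which the call was lost.

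The loci *Aqcoe1G446200* and *Aqcoe2G141600* have as best hit the bZIP gene *TGA9*, which acts in Arabidopsis anther development. *Aqcoe1G446200* had 0.850, 5.37 and 14.01 TPM as its lowest, median and highest level at s3, against 0.464, 1.54 and 2.52 TPM at s2 (log2 fold change 2.04, SE 0.44, adjusted p 0.017 by edgeR). *Aqcoe2G141600* had 4.57, 9.49 and 16.9 TPM at s3, against 3.20, 5.57 and 6.63 TPM at s2 (1.097, SE 0.26, adjusted p 0.043). In both, replicates 4 and 7 were the low s3 libraries and lay within the s2 range. The second call was weak, being kept in 14 of the 32 fits with 1 library left out, and the first was lost without s3 replicate 2 (adjusted p 0.0705), with limma-voom (0.284) and in a fit of the 16 libraries alone (0.0659). As close paralogs they may share reads.

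The bHLH list holds only genes that the study had found to differ between stages, so that its counts are not independent evidence. Of 14 bHLH genes, 3 were called higher and 1 fell, against 0.259% and 0.230% of all genes tested. Their summed level did not rise, with 183 to 224 TPM at s3 (median 212) and 205 to 239 TPM at s2 (median 227). *Aqcoe3G395700* had 20.96, 25.7 and 36.7 TPM as its lowest, median and highest level at s3, against 9.60, 11.7 and 22.2 TPM at s2 (log2 fold change 1.08, SE 0.17, adjusted p 0.0006 by edgeR). *Aqcoe7G421900* had 0.995, 7.60 and 15.3 TPM at s3, against 1.02, 1.49 and 3.51 TPM at s2 (2.03, SE 0.42, adjusted p 0.011), and *Aqcoe3G183200* had 0.0201, 0.505 and 0.999 TPM at s3, against 0.115 TPM at most at s2, where 5 libraries had no count (4.41, SE 0.83, adjusted p 0.0044). With limma-voom the calls of *Aqcoe7G421900* (adjusted p 0.368) and *Aqcoe3G183200* (0.507) were lost, and that of *Aqcoe7G421900* also in the fit of 16 libraries (0.0871). Both were low in s3 replicates 4 and 7. The homolog of the later tapetum regulator *AMS*, *Aqcoe3G122900*, averaged 8.41 TPM at s3 and 8.25 TPM at s2 (log2 fold change 0.03, adjusted p 1).

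**Figure D4:**
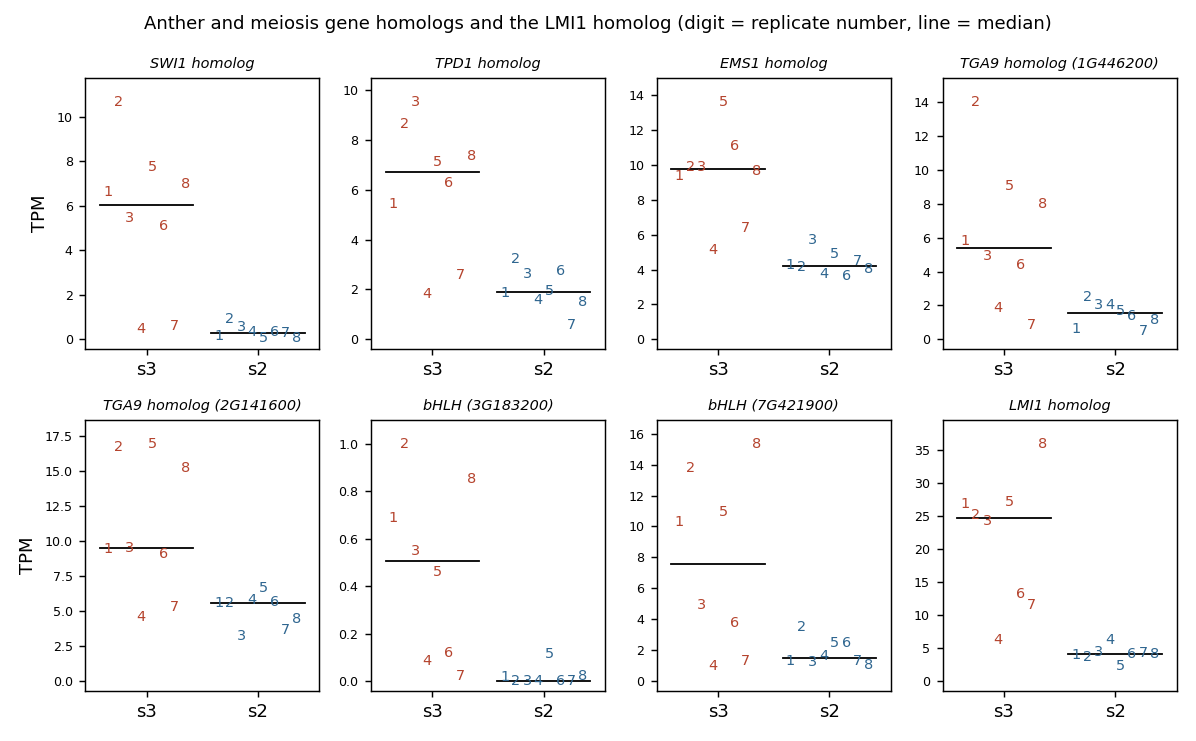
TPM of 7 homologs of anther, meiosis and bHLH regulators and of the *LMI1* homolog in each library, s3 left and s2 right, with the replicate number as the plotting symbol and a line at the median (linear axes from 0). Replicates 4 and 7 of s3 lie at or near the s2 level in most panels, while the other s3 libraries lie above it.

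This split ran through the genes called higher. In s3 replicate 7, 27 of the 53 genes lay within the s2 range, and in replicate 4 there were 19, against 0 to 7 in the other 6 s3 libraries. For 12 of the 53, replicates 4 and 7 were the only s3 libraries inside the s2 range, among them the homologs of *SWI1*, *TPD1*, *TGA9* (both loci) and the dynamin-related *DRP4C*. The genes called lower did not show it, with 2 of 11 inside the s2 range in replicate 4 and 1 of 11 in replicate 7, against 1 to 3 in the others. Totals of these libraries, 24207309 and 25755608 counts, were within the range of their stage. On PC1, however, they had the highest scores of s3, 24.1 for replicate 4 and 83.5 for replicate 7, against at most 18.5 in the others. Replicate 7 also had the fewest genes over 1 CPM at s3, 17805. Whether the split follows this axis between libraries was not tested. At s2, replicate 4 had the most genes called higher within the s3 range, 26 of 53, against 10 to 20 in the others. These counts describe the genes chosen by the same libraries and carry no test. Without s3 replicate 7 the calls numbered 59 higher and 10 lower, and without s3 replicate 4 they numbered 53 higher and 10 lower.

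Heat shock and chaperone genes rose in part, in a list that also holds only genes the study had found to differ between stages. Of 29 members, 5 were called higher, 1 more rose by less than the fold threshold, with a median log2 fold change of 0.80 and 24 above 0. The summed level of the list was 604 to 1590 TPM at s3 (median 1038.5) and 219 to 667 TPM at s2 (median 432), and 7 of 8 s3 libraries exceeded every s2 library. The most abundant of the members that rose was *Aqcoe5G438600*, a small heat shock protein gene of the HSP20 family, with 307, 641 and 997 TPM as its lowest, median and highest level at s3, against 99.7, 212 and 403 TPM at s2. Only s3 replicate 7 lay within the s2 range, and the log2 fold change was 1.51 (SE 0.26, adjusted p 0.0016 by edgeR).

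The *MBF1C* homolog *Aqcoe2G111100*, a transcriptional coactivator of the heat response in Arabidopsis, had 53.1, 77.5 and 141 TPM as its lowest, median and highest level at s3, against 15.6, 32.2 and 47.2 TPM at s2. All s3 libraries exceeded all s2 libraries, and the log2 fold change was 1.504 (SE 0.24, adjusted p 0.00078 by edgeR). The mitochondrial *HSP23.6* homolog *Aqcoe5G417100* was separated as well, with 125 to 228 TPM at s3 and 60.2 to 115 TPM at s2 (0.85, SE 0.17, adjusted p 0.0077). The HSP20 genes *Aqcoe1G045400* (1.17, SE 0.24, adjusted p 0.0084) and *Aqcoe1G320100* (1.554, SE 0.32, adjusted p 0.011) have the same best hit and may share reads, and the call of *Aqcoe1G320100* was lost in the fit of 16 libraries (adjusted p 0.06). The *HSP90.1* homolog *Aqcoe1G130700* was near the threshold (1.52, SE 0.37, adjusted p 0.046) and kept its call in 12 of the 32 fits with 1 library left out. The heat regulator *HSFA2* has a homolog, *Aqcoe7G425400*, that did not pass the test (0.45, adjusted p 0.24). Replicates 6 and 7 were the lowest s2 libraries for *MBF1C* and replicate 1 the lowest s3 library. Whether handling of the buds had a part in these levels was not tested.

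**Figure D5:**
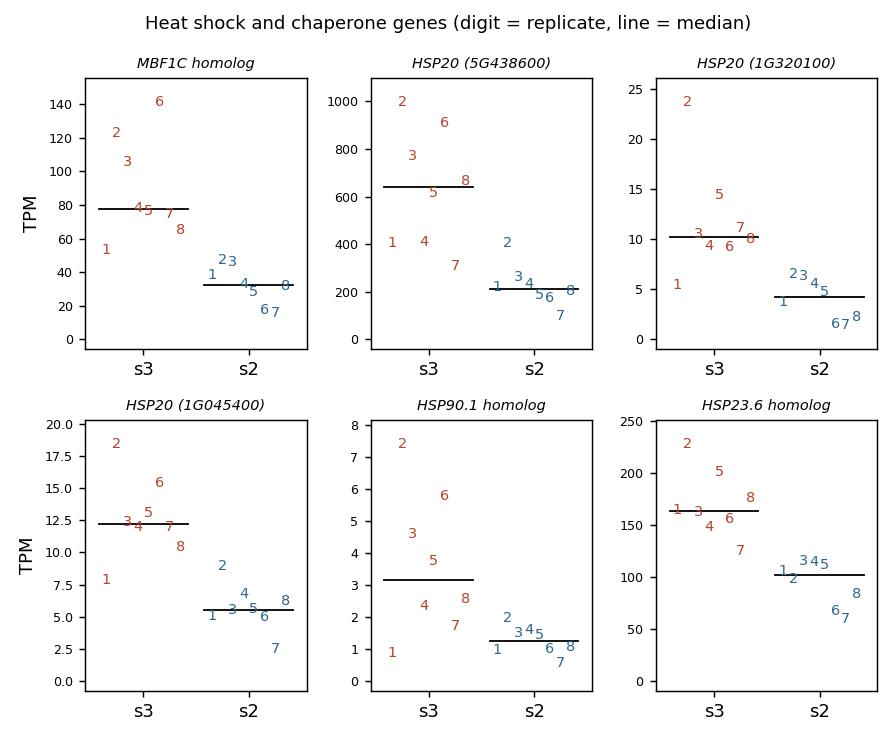
TPM of the 6 heat shock and chaperone genes with an adjusted p under 0.05 in each library, s3 left and s2 right, with the replicate number as the plotting symbol and a line at the median (linear axes from 0). The *MBF1C* and *HSP23.6* homologs do not overlap between the stages, and s3 replicate 1 is among the lowest s3 libraries in most panels.

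The gene with the smallest adjusted p was *Aqcoe6G143000*, of the SPFH/Band 7 family of membrane scaffold proteins. It had 42.7, 69.6 and 98.9 TPM as its lowest, median and highest level at s3, against 13.2, 17.7 and 29.7 TPM at s2, without overlap. The log2 fold change was 1.88 (SE 0.18, adjusted p 1.2e-07 by edgeR). The *PAO1* homolog *Aqcoe3G119000*, a polyamine oxidase gene, had 3.20, 6.16 and 15.5 TPM at s3, against 0.0647, 0.209 and 1.70 TPM at s2, again without overlap (4.06, SE 0.52, adjusted p 3.7e-05). Its highest library was replicate 4 in both stages, so that the low position of s3 replicate 4 was not shared by this gene.

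The leucine-rich repeat receptor kinase list also holds only genes that the study had found to differ between stages. Of 23 such genes, 6 rose, 4 of them past the fold threshold (median 0.63, 17 above 0), and the *EMS1* homolog is one of these. Over all genes tested, 0.400% rose and 0.259% were called higher. *Aqcoe6G158500* had 0.424, 0.592 and 1.48 TPM as its lowest, median and highest level at s3, against at most 0.128 TPM at s2, where 4 libraries had no count (log2 fold change 4.16, SE 0.67, adjusted p 0.00078 by edgeR). *Aqcoe4G245900* (1.48, SE 0.35, adjusted p 0.039) was separated too, with 1.96 to 3.71 TPM at s3 and 0.523 to 1.69 TPM at s2, but its call was kept in 21 of the 32 fits with 1 library left out. *Aqcoe6G151900* (1.84, SE 0.35, adjusted p 0.0042) had 0.783 to 2.64 TPM at s3 and 0.172 to 0.963 TPM at s2, with 7 of 8 s3 libraries above every s2 library.

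Cell wall genes were mostly above 0, 64 of 73, with a median log2 fold change of 0.51, and 6 rose, 5 of them past the fold threshold. The list holds only genes that the study had found to differ between stages of these libraries, so that its direction is not independent evidence. The *PRP2* homolog *Aqcoe5G210700*, a proline-rich wall protein gene, had 1.18, 3.002 and 4.91 TPM as its lowest, median and highest level at s3, against 0.108, 0.441 and 1.14 TPM at s2 (2.39, SE 0.41, adjusted p 0.0016 by edgeR). It was separated narrowly in TPM, and its stages overlapped in CPM with TMM normalisation. The *FUC1* homolog *Aqcoe7G057900*, an alpha-fucosidase gene, was separated at lower levels, with 0.284 to 0.731 TPM at s3 and at most 0.253 TPM at s2 (2.08, SE 0.40, adjusted p 0.0055), and its call was lost in the fit of 16 libraries (0.0564). The xyloglucan-remodelling *XTH26* homolog *Aqcoe7G163800* (2.67, SE 0.62, adjusted p 0.032), a rhamnogalacturonate lyase gene, *Aqcoe1G229700* (3.49, SE 0.84, adjusted p 0.043), and an X8 domain gene, *Aqcoe4G014200* (2.72, SE 0.62, adjusted p 0.025), were all under 5 TPM and kept their calls in 24, 14 and 27 of the 32 fits with 1 library left out. Limma-voom did not call *Aqcoe7G163800* or *Aqcoe1G229700*. The member that rose by less than the fold threshold, *Aqcoe3G375900*, an extensin-like gene of the pollen Ole e 1 family, had 26.5 to 48.0 TPM at s3 and 14.1 to 26.7 TPM at s2 (0.94, SE 0.16, adjusted p 0.0016).

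Both loci with *BGLU17*, a beta-glucosidase gene, as best hit rose among the 6 beta-glucosidase genes. Like the cuticle and transport lists below, this list holds only genes that the study had found to differ between stages. Over all genes tested, 0.400% rose and 0.230% fell. *Aqcoe7G300700* had 5.27, 15.9 and 24.9 TPM as its lowest, median and highest level at s3, against 0.0476, 1.68 and 6.58 TPM at s2 (log2 fold change 2.80, SE 0.55, adjusted p 0.0074 by edgeR). *Aqcoe0021s0001* had 2.20, 5.78 and 12.1 TPM at s3, against 0, 0.617 and 2.81 TPM at s2 (2.92, SE 0.59, adjusted p 0.009). In both, s2 replicate 4 was the highest s2 library and s3 replicate 7 the lowest s3 library, and these were the overlap between the stages. The call of *Aqcoe0021s0001* was lost in the fit of 16 libraries (adjusted p 0.0696). Reads shared between the loci are divided by estimate. The summed level of the 52 cuticle and surface lipid genes was 5480 to 7319 TPM at s3 (median 6533) and 6052 to 7171 TPM at s2 (median 6602). In this list, 3 rose and 1 fell (median 0.51, 42 above 0), with the acyltransferase gene *Aqcoe4G281800* (1.20, SE 0.26, adjusted p 0.019) and the GDSL lipase gene *Aqcoe6G007700* (1.78, SE 0.40, adjusted p 0.023) past the fold threshold. Neither was called without s2 replicate 1 or without s2 replicate 5, and they kept their calls in 28 (*Aqcoe4G281800*) and 26 (*Aqcoe6G007700*) of the 32 fits with 1 library left out, the GDSL lipase gene losing it also in the fit of 16 libraries (adjusted p 0.0701). Of 14 ion and water transport genes, 2 rose and 1 fell, the phosphate transporter homolog *Aqcoe6G162300* described above (log2 fold change -2.24). The *FRO2* homolog *Aqcoe6G055000*, a ferric reductase gene, had 1.39 to 2.996 TPM at s3 and 0.279 to 1.41 TPM at s2 (1.41, SE 0.31, adjusted p 0.017), and the aquaporin homolog *Aqcoe7G162300* (*TIP4;1*) was separated, with 57.6 to 100 TPM at s3 and 28.8 to 55.8 TPM at s2 (0.90, SE 0.20, adjusted p 0.023). The *FRO2* call was lost in the fit of 16 libraries (adjusted p 0.0507) and without s2 replicate 5 (0.0501).

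The 5 highest log2 fold changes among called genes belonged to genes that were near 0 at s2. *Aqcoe7G264500*, a nucleoside transporter gene, had 95 counts over the 8 s3 libraries and 1 over the 8 s2 libraries, a ratio of 89.5 with an exact 95% interval of 15.7 to 3570 that covers counting error only, and 1 s3 library had no count. *Aqcoe5G219400*, which has no best hit in the study's tables, had 0.0908, 4.92 and 18.3 TPM as its lowest, median and highest level at s3, against at most 0.654 TPM at s2 (4.97, SE 0.73, adjusted p 0.00026 by edgeR). Its 2 lowest s3 libraries were replicates 7 and 4. Limma-voom did not call *Aqcoe5G219400* (adjusted p 0.354) or *Aqcoe7G264500* (0.0872). *Aqcoe4G079300*, whose best hit carries no description, was separated, with 0.202 to 1.403 TPM at s3 and at most 0.0777 TPM at s2 (4.45, SE 0.76, adjusted p 0.0016). *Aqcoe3G183200* and *Aqcoe6G158500*, described above, were the others. In 10 of the 53 genes called higher the mean at s3 was under 1 TPM.

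The other genes called higher with a best hit were spread over many functions. *Aqcoe2G397800* (*DRP4C*, a dynamin-related protein, 1.94, SE 0.29, adjusted p 0.00026 by edgeR) had 4.16 to 20.9 TPM at s3 and 2.03 to 4.47 TPM at s2. *Aqcoe5G140900* (*ARFA1E*, a small GTPase of vesicle traffic, 2.11, SE 0.36, adjusted p 0.0015) was separated, with 2.43 to 5.75 TPM at s3 and 0.227 to 1.81 TPM at s2. The glutamine synthetase gene *Aqcoe2G320700* (*GLN1;4*, 1.09, SE 0.22, adjusted p 0.0075) had 8.93 to 32 TPM at s3 and 7.29 to 12.4 TPM at s2. The cupredoxin gene *Aqcoe6G076200* (2.04, SE 0.42, adjusted p 0.011), the kelch F-box gene *Aqcoe3G281400* (1.97, SE 0.44, adjusted p 0.023) and the cytochrome P450 gene *Aqcoe4G136900* (*CYP72A15*, 3.74, SE 0.75, adjusted p 0.0077) also passed. Limma-voom did not call the glutamine synthetase, cupredoxin and cytochrome P450 genes. *Aqcoe5G388300*, whose best hit carries no description, was separated, with 4.35 to 10.11 TPM at s3 and 1.65 to 3.27 TPM at s2, and its call (1.44, SE 0.30, adjusted p 0.012) held in every alternative and with each library left out. Less firm were an acyltransferase gene, *Aqcoe2G101900* (1.41, adjusted p 0.02, lost with limma-voom), an aspartyl protease gene, *Aqcoe5G135200* (1.304, adjusted p 0.03, kept in 23 of the 32 fits with 1 library left out), and a proline-rich protein gene, *Aqcoe3G387800* (1.88, adjusted p 0.034, kept in 23). The remaining calls with a best hit were a C1 domain gene, *Aqcoe6G104800* (2.79, adjusted p 0.038, kept in 20), *Aqcoe7G007800* (*IQD21*, 1.08, adjusted p 0.049, kept in 10) and *Aqcoe3G143300* (2.40, adjusted p 0.049, kept in 5). Of the 53 genes, 9 had no best hit in the study's tables, and the most abundant of these at s3 was *Aqcoe7G207100*, with 4.41, 86.6 and 232 TPM as its lowest, median and highest level at s3 and 0.509, 5.73 and 37.6 TPM at s2 (3.103, SE 0.73, adjusted p 0.034).

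Green tissue markers were mostly above 0 but did not pass the test. Of 12 photosynthesis genes, 11 had a log2 fold change above 0 (median 0.46), against 49.9% of all genes tested. None passed in edgeR, DESeq2 or limma-voom with both thresholds, and 6 had an unadjusted p under 0.05 in edgeR, while their summed level was 2394 to 3922 TPM at s3 and 1385 to 2475 TPM at s2. The 3 stomatal lineage genes, homologs of *EPF1* (0.35), *MUTE* (0.36) and *STOMAGEN* (0.66), gave adjusted p of 0.63 to 1 (1 with an unadjusted p under 0.05, and none called by DESeq2 or limma-voom), and their sum was 13.5 to 40.5 TPM at s3 and 14.2 to 26.7 TPM at s2. The part of these markers in the genes that rose was not tested.

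The study's network hub genes, chosen on these libraries, were counted as well. Of 34 genes listed for the green module, which are its hub genes and *AqAGO5a* (*Aqcoe5G237200*), added by the study although it missed the hub criteria, 13 fell and 4 rose, with a median of -0.51, and the summed level was 1015 to 1203 TPM at s3 and 1242 to 1489 TPM at s2. Beyond the genes above, those that fell were the lignin pathway *HCT* homolog *Aqcoe7G354200*, separated with 4.24 to 9.14 TPM at s3 and 10.8 to 15.2 TPM at s2 (-0.93, SE 0.18, adjusted p 0.0054 by edgeR), the phytochrome gene *Aqcoe1G205900* (*PHYE*, -0.73, SE 0.15, adjusted p 0.013) and the *EPFL4* homolog *Aqcoe2G352600* (-0.57, SE 0.11, adjusted p 0.0057), which encodes a secreted peptide and was separated at 17.5 to 22.9 TPM at s3 and 27.3 to 33.4 TPM at s2. Of 14 hub genes of the magenta module, 4 rose and 2 fell, and of 56 of the brown module, 1 rose. The summed level of the magenta hub genes was nonetheless lower at s3, with 1014 to 1343 TPM against 1353 to 1665 TPM at s2, without overlap.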

How the data were processed

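Gene expression was measured by RNA-seq of pooled wild-type buds. The authors trimmed reads with Trim Galore and quantified them with kallisto against the *Aquilegia coerulea* Goldsmith reference transcriptome, and deposited for each library an estimated count and a TPM per transcript, where TPM is scaled by transcript length and library and keeps no depth. The estimated counts, once rounded to integers, were fitted by quasi-likelihood in edgeR 4.0.16 (TMM normalisation, R 4.3.3) over all 32 libraries with stage as the factor, keeping the 20477 of 30023 transcripts that exceeded 1 CPM in any library. TPM was used for levels only. Dispersion corresponded to a biological coefficient of variation of 31.2%. Scripts were tested on simulated data.

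Genes described were all calls with a best Arabidopsis hit or lower at s3, the 5 highest fold changes among calls, all members of the meristem, organ identity and stomatal lists, and those members of other lists with an adjusted p under 0.05 that the text describes. *Aqcoe1G136700* and the *AMS* and *HSFA2* homologs, *Aqcoe7G207100* and the closing genes were chosen after their values were seen. The lists and members were chosen with earlier results of these data known. Apart from the hub, meristem and organ identity lists, they hold only genes that the study had found to differ between stages of these libraries. The 2 buds of a library came from different plants, but the study took more buds than it had plants and the labels do not tie libraries to plants, so p-values measure the spread between libraries. Alternatives covered normalisation, filter, test tool (DESeq2 1.42.0, voom in limma 3.58.1), libraries in the fit, a replicate block and leaving out each library.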

Additional observations from a re-analysis of the deposited data

Results flagged for a closer look

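In each stage with 8 libraries, the highest and the lowest TPM of every named gene, and the highest and the lowest library total, were set against the other libraries by Dixon's ratio at its 95% critical value. Of 194 groups tested, 15 passed, where chance flags about 1 in 20.

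At s3, replicate 1 was high for *AqHAN* (*Aqcoe5G190300*), at 17.07 TPM against 5.943 to 8.833 TPM in the others, and for *AqAIL6* (*Aqcoe6G092100*), at 6.235 TPM against 3.478 to 4.403 TPM. Replicate 7 was high for *AqSEP1* (*Aqcoe3G065400*), at 18.22 TPM against 9.862 to 13.19 TPM, and low for *Aqcoe5G084000*, at 13.31 TPM against 21.74 to 28.97 TPM. Replicate 2 was high for *Aqcoe4G079300*, at 1.403 TPM against 0.2016 to 0.5386 TPM, and for *Aqcoe7G264500*, at 1.409 TPM against 0 to 0.5202 TPM. Replicate 8 was high for *Aqcoe6G158500*, at 1.479 TPM against 0.4238 to 0.8309 TPM.

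At s2, replicate 4 was low for *AqBOP* (*Aqcoe2G033300*), at 54.18 TPM against 63.82 to 69.64 TPM, and high for *Aqcoe3G143300*, at 2.191 TPM against 0 to 0.8222 TPM. Replicate 7 was low for the *CLE27* homolog *Aqcoe3G039100*, at 1.036 TPM against 2.225 to 3.186 TPM, and replicate 6 for the *RTV1* homolog *Aqcoe7G028200*, at 11.51 TPM against 18.83 to 24.91 TPM. Replicate 5 was high for *Aqcoe3G183200*, at 0.1145 TPM against 0 to 0.0204 TPM, and for *Aqcoe4G014200*, at 0.3934 TPM against 0 to 0.1625 TPM. Replicate 2 was low for *Aqcoe3G326800*, at 48.16 TPM against 58.36 to 66.37 TPM, and was the only library above 0 for *Aqcoe7G264500*, at 0.03352 TPM.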

How the results depend on the processing

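The 64 calls became 110 with DESeq2 (96 higher) and 129 with the main residual component as a covariate (115 higher), and at any fold change 129 genes passed (82 higher, 47 lower). Other settings gave 50 (limma-voom, 40 of the 64 kept), 62 (counts scaled from TPM), 64 (size factors of the RLE kind), 60 (library totals only), 60 (no filter), 57 (more than 1 CPM in at least 8 libraries) and 50 (the 16 libraries alone, 41 kept). With 1 library left out the calls ran from 46 to 80, the higher ones from 37 to 68, the lower ones from 8 to 17, and the separated genes, with fewer libraries to keep apart, from 48 to 80 against 44. Whether replicate numbers pair the libraries was not settled. Correlations of deviations ran from -0.405 to 0.622, and 2 of 8 numbers, 2 and 7, correlated best with their own. The main residual component held 38.7% of the residual variance and enters these correlations, so that they can neither show nor exclude pairing. A fit with the replicate number as a block gave 64 calls (53 higher, 11 lower), 56 of them shared with the fit without it. Leaving out replicate 7 of both stages, an alternative chosen after seeing the data, gave 69 calls, 58 of them shared. No direction reversed, and of 56 named genes that were called, 24 kept the call under every alternative and with each library left out. Calls under 1 TPM rest on few counts.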

Other observations

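Further genes fell at s3 by less than the fold threshold, and were chosen after their values were seen. The *SOC1* homolog *Aqcoe5G423800*, a MADS-box gene of the floral transition, had 4.21, 7.45 and 8.99 TPM as its lowest, median and highest level at s3, against 8.74, 12.6 and 19.1 TPM at s2 (log2 fold change -0.84, SE 0.17, adjusted p 0.0077 by edgeR). The *JAG* homolog *Aqcoe3G037600*, a zinc finger gene of organ growth, had 20.4, 35.1 and 44.1 TPM at s3, against 43.3, 57.3 and 61.8 TPM at s2 (-0.68, adjusted p 0.0021), and the cytochrome P450 gene *Aqcoe3G367800* (*CYP78A10*) had 160, 204 and 306 TPM at s3, against 267, 358 and 447 TPM at s2 (-0.75, adjusted p 0.0044). The stages overlapped in all 3 genes, most widely in *CYP78A10*. Homologs of the organ polarity genes *KAN2* (*Aqcoe3G169700*, -0.44, adjusted p 0.011) and *YAB3* (*Aqcoe7G078300*, -0.39, adjusted p 0.016) fell too.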
